A study of Mus musculus with 14 samples.

Results

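The genes described here encode complement components, receptors and a regulator: C1qa, C1qb, C1qc, C3, C4b, C7, C3ar1, C5ar1 and Serping1. They were taken by symbol, and a gene was measured where the array annotation gave a probe set that symbol alone; with several such probe sets the brightest would have stood for the gene. This gave 8 of the 9 genes, each with 1 probe set, out of 19938 genes measured in the same way. C3 had no probe set with its symbol alone and was not analysed here. The values came from a time course of plantaris muscle in male C57BL/6J mice, 5 months old, made to carry extra load by synergist ablation, an operation that removes the muscles sharing the plantaris's work. The days of overload sampled were 0, 1, 3, 5, 7, 10 and 14, and no mutant or drug was used in any group. Each day had 2 Affymetrix Mouse Gene 1.0 ST arrays, 1 of a pool of right and 1 of a pool of left plantaris muscles from 6 animals, so 14 arrays in all. The labels name no sham-operated group, so overload, surgery and time after it cannot be told apart. Nor do they tell whether both muscles of an animal went into the pools of a day, so the p-values rest on the spread between pools alone, part of which may be technical.

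Complement is a cascade of plasma and tissue proteins that tags microbes, dead cells and debris and calls in immune cells. The classical pathway starts with C1q, built of chains encoded by C1qa, C1qb and C1qc, which carries the proteases C1r and C1s; these cut C4 and C2. All pathways meet at C3, whose fragments coat targets and whose small fragment C3a acts through the receptor C3ar1. C5 then gives C5a, which acts through C5ar1, and C5b, which assembles with C6, C7, C8 and C9 into the membrane attack complex. Serping1 encodes C1 inhibitor, which shuts off C1r, C1s and the lectin pathway proteases. Most circulating complement is made by the liver, whereas C1q comes largely from macrophages and related cells, which clear damaged fibres in injured muscle.

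The deposited intensities were used on the log2 scale, and each day was compared with day 0 in a limma model with 1 mean per day over all 14 arrays. In each comparison the p-values of all 19938 genes were adjusted together (Benjamini-Hochberg), and an adjusted p under 0.05 counted as a change. Errors are standard errors (SE) of a difference between days, each with n = 2 arrays a day. The files hold no detection call, and levels of different genes are not compared, because probe sets differ in brightness for the same amount of RNA. In a bulk tissue, more cells of a type and more RNA per cell cannot be told apart.

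The muscle fibre markers Acta1 and Ckm stood between 13.34 and 14.40 log2 units on every array, so the labelled tissue carried its defining genes. Some pools also carried markers of another tissue. Of 20 listed hepatocyte genes 17 were measured, and their summed intensity ranged from 4781.2 in the right pool of day 5 to 86361.6 in the day 0 left pool and 89596.5 in the day 1 right pool. The partner pools of these days stood at 19926.0 (right, day 0) and 26669.7 (left, day 1). Albumin (Alb) read from 10.49 to 14.00 log2 units, and the mean of the 17 markers from 7.80 (right pool, day 5) to 12.06; without detection calls, whether a pool lacked this signal cannot be told. Right and left pools differed in 0 genes at an adjusted p under 0.05 in limma with day in the model, and in 586 genes at an unadjusted p under 0.05, of which 1 was a complement gene of the set (C5ar1). That model fits 1 right-minus-left difference for all days. Gaps that change side between days, as those of the hepatocyte markers did, would not show in it.

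Most of the measured genes of the set changed with overload, in 3 shapes. The C1q chains and both anaphylatoxin receptors rose several-fold and stayed raised to day 14. C7 fell and came most of the way back. Serping1 dipped at day 1 and ended above day 0, while C4b passed the test at none of the days. Against day 0, 4 of the 8 rose and 2 fell at day 1, when 55.0% of all genes were called (20.3% rose and 34.7% fell). At day 3, 5 rose and 1 fell, when 47.7% of all genes were called (24.2% rose and 23.4% fell). Day 5 also had 5 rises and 1 fall, against 65.1% of all genes (27.0% and 38.1%), as had day 7, against 66.2% (28.5% and 37.8%). By day 10 there were 6 rises and 1 fall, against 51.1% (23.6% and 27.5%), and day 14 gave the same counts against 42.1% (21.4% and 20.7%). Of the 8 genes, 7 passed limma's F test for any difference from day 0, the exception being C4b (adjusted p = 0.319), as did 71.3% of all genes. The median change of the 8 genes was 2.49 at day 3 and 1.42 at day 14, beside -0.07 and -0.08 over all genes.

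**Figure D1:**
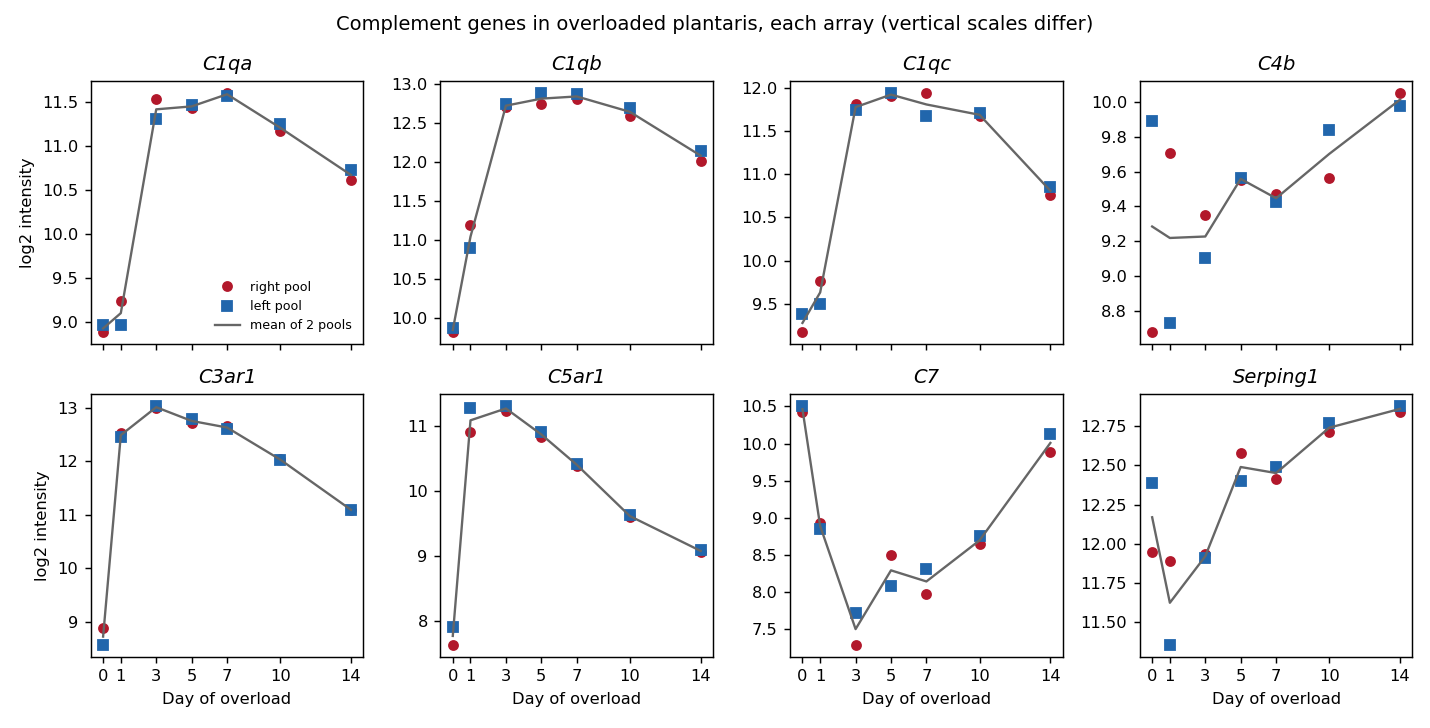
Log2 intensity of each of the 8 measured genes in the right pools (red circles) and left pools (blue squares) at each day, with a line through the day means; vertical scales differ between panels. Both pools of a day lie close together for the C1q chains, C3ar1 and C5ar1, whereas C4b in the left pool of day 0 stands at 9.89 and in the right pool at 8.68.

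C1qa, C1qb and C1qc lie next to each other on chromosome 4 as consecutive protein-coding genes, in the order C1qb, C1qc, C1qa, in RefSeq's table of build GRCm38.p6. RefSeq promoter windows, from 250 bases before to 50 after a gene's start, were at hand for 6 of the 9 genes. The bases before the start are shown for C1qb (chr4:136886201-136886450, minus strand) and C1qc (chr4:136892937-136893164, minus strand, 228 bases, those outside the gene's annotated span), as the C1q chains with a window at hand. The printed C1qc stretch stops 22 bases short of the start used in its window. Letters run 5′ to 3′, and capitals mark the PU.1 core motif, GAGGAA or its reverse complement TTCCTC.
C1qb: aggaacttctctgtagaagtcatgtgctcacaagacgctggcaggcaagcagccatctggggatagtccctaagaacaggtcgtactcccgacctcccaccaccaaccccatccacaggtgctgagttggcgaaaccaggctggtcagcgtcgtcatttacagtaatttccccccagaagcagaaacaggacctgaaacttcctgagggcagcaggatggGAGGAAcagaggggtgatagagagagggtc
C1qc: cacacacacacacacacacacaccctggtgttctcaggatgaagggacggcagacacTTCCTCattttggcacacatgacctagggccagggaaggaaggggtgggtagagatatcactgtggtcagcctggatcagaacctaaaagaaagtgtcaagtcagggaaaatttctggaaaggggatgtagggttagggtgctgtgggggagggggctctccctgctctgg
Counted from the start of the gene in its window, the motif began at -30 in C1qb and, on the other strand, at -193 in C1qc. It was in the windows of 2 of the 6 genes and in 28.3% of 32851 promoter windows of that length, so it is common and is given as a description only. The other motifs searched on both strands were TTGCNNCAA (C/EBP), TTCNNNGAA (STAT), an interferon response element and an NF-kB site, and none of them was in the windows of C1qb or C1qc. Interferon response and NF-kB motifs were found in 0 of the 6 windows, against 3.44% and 0.155% of all windows.

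The C1q chains, the recognition part of the classical pathway, rose together between day 1 and day 3 and stayed near their highest level to day 10. In the right and left pools C1qa read 8.88 and 8.96 at day 0, 9.23 and 8.96 at day 1, 11.53 and 11.30 at day 3, 11.43 and 11.46 at day 5, 11.60 and 11.57 at day 7, 11.16 and 11.24 at day 10, and 10.61 and 10.72 at day 14. All 10 pools from day 3 on lay above all 4 pools of days 0 and 1, and the left pools of days 0 and 1 both read 8.96. The difference from day 0 was 0.17 ± 0.10 at day 1 (adjusted p = 0.164), 2.49 at day 3, and 2.66 ± 0.10 at day 7 (6.32-fold, adjusted p = 4.843e-09). At day 14 it was 1.74, or 3.35-fold, which is 65.5% of the largest log2 change. Without the left pool of day 1 the day 1 value was 0.31 and passed the test (adjusted p = 0.0367).

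C1qb differed from the other chains in being raised further at day 1. Its right and left pools read 9.82 and 9.87 at day 0, 11.19 and 10.89 at day 1, 12.70 and 12.73 at day 3, 12.73 and 12.88 at day 5, 12.81 and 12.86 at day 7, 12.58 and 12.69 at day 10, and 12.01 and 12.14 at day 14. Both day 1 pools stood clear of day 0 on one side and of all later days on the other. C1qb rose by 1.20 ± 0.10 at day 1 (2.29-fold, adjusted p = 1.905e-06), by 2.99 at day 7 (7.95-fold, adjusted p = 2.166e-09), and by 2.23 at day 14, 74.6% of the largest log2 change.

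C1qc followed C1qa more closely. It read 9.17 and 9.38 at day 0, 9.77 and 9.49 at day 1, 11.81 and 11.74 at day 3, 11.90 and 11.94 at day 5, 11.94 and 11.67 at day 7, 11.67 and 11.71 at day 10, and 10.76 and 10.85 at day 14. The day 1 pools were both above both day 0 pools, by a small margin. C1qc rose by 0.35 ± 0.11 at day 1 (adjusted p = 0.0207), by 2.64 at day 5 (6.25-fold, adjusted p = 1.222e-08) and by 1.53 at day 14. The day 1 call ended without the right pool of day 0 (0.25, adjusted p = 0.145) or the right pool of day 1 (0.22, adjusted p = 0.171), and under quantile normalization (0.24, adjusted p = 0.0850).

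A ratio taken within an array does not depend on the array's scaling, and it showed the unequal timing of the chains. The log2 ratio of C1qb to C1qa, counted from its day 0 mean, was 1.04 and 1.01 in the day 1 pools and between 0.25 and 0.53 in the 10 later pools. The ratio of C1qb to C1qc was 0.85 and 0.83 at day 1, between 0.27 and 0.62 from day 3 to day 10, and 0.68 and 0.72 at day 14. The ratio of C1qc to C1qa stayed between -0.25 and 0.18 on all arrays. So C1qb had moved further than the other chains at day 1 in both pools, by about as much in each, and kept a smaller lead afterwards. With 2 pools a day, no test of the ratios alone was made.

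**Figure D2:**
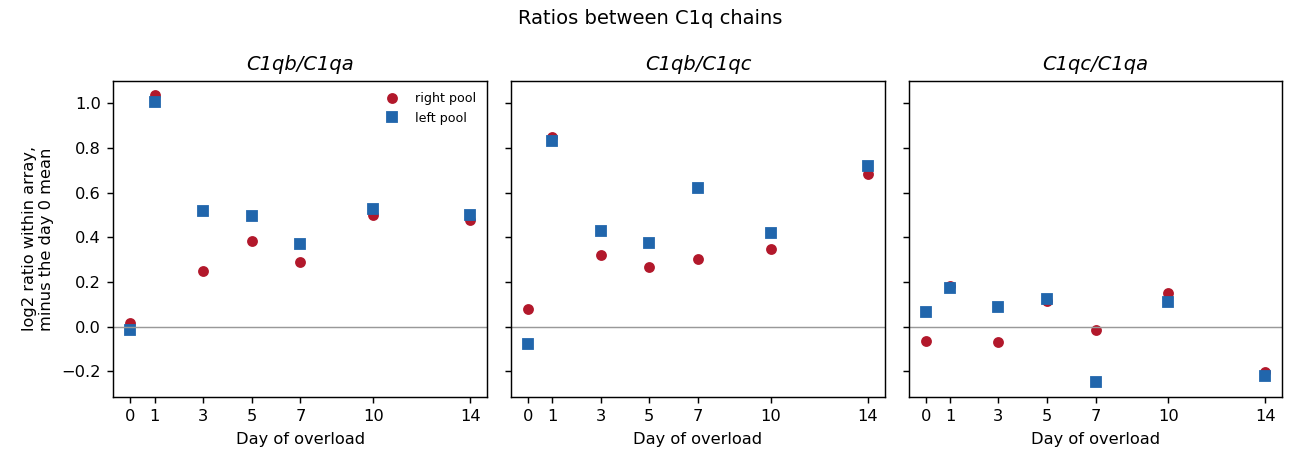
Log2 ratio between pairs of C1q chains within each array, minus its day 0 mean, by day, for right pools (red circles) and left pools (blue squares). The 2 panels with C1qb peak at day 1, at 1.04 and 1.01 against C1qa, while C1qc against C1qa stays between -0.25 and 0.18.

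From day 1 to day 3 the rise was 2.32 for C1qa, 1.68 for C1qb and 2.15 for C1qc, and it passed the test in each (adjusted p = 2.944e-07, 8.641e-07 and 4.553e-07). In that step 4 of the 8 genes rose and 1 fell, against 34.7% of all genes called (21.5% rose and 13.2% fell). None of the chains passed the test from day 3 to 5 or from day 5 to 7. Days 10 and 14 together stood below days 5 and 7 by a modest amount: C1qa fell by 0.58 ± 0.07 (adjusted p = 0.000103), C1qb fell by 0.46 ± 0.07 (adjusted p = 0.000416) and C1qc fell by 0.62 ± 0.08 (adjusted p = 0.000144). In this comparison 5 of the 8 genes fell and 2 rose, against 36.1% of all genes called (18.4% fell and 17.7% rose).

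By Pearson correlation of log2 intensity over the 14 arrays, the gene most like C1qa among 17119 ranked was C1qc (r = 0.9904), before the lysosomal beta-galactosidase gene Glb1 and the galectin gene Lgals1 (r = 0.9898 for both). C1qb was closest to Fscn1, which encodes the actin bundler fascin (r = 0.9948), and to the lysosomal enzyme gene Ppt1 (r = 0.9943), with C1qa only at rank 156 and C1qc at rank 98. C1qc was closest to Lgals1 (r = 0.9925). All such correlations run over the same arrays and day means and are descriptions.

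Partners of C1q in the C1 complex rose later and less. C1s1, the gene of the protease C1s, read 9.81 and 9.96 at day 0, 9.73 and 8.81 at day 1, 9.35 and 9.45 at day 3, and 11.13 and 11.19 at day 14. Its day 1 and day 3 pools lay below both day 0 pools, and its day 14 pools lay above the pools of all other days, the next being day 10 (11.07 and 11.04). It fell by 0.62 at day 1 (adjusted p = 0.0290), a value not recomputed without single pools, and rose by 1.27 ± 0.21 at day 14 (adjusted p = 0.000618). C1ra, the gene of C1r, rose by 0.85 ± 0.17 at day 10 (adjusted p = 0.00147), and C1s2 by 0.80 ± 0.17 (adjusted p = 0.00258). Of the 4 other measured genes listed for the start of the classical pathway (C1ra, C1rl, C1s1, C1s2), 3 rose at each of days 7, 10 and 14. Of all genes, 28.5%, 23.6% and 21.4% rose at these days. C1ra and C1rb, and C1s1 and C1s2, are near-identical pairs whose probes could be shared, which was not checked. C1rb was not analysed here.

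The receptors for the small fragments C3a and C5a were raised within 1 day. C3ar1, the C3a receptor, read 8.88 and 8.57 in the right and left pools at day 0, 12.53 and 12.44 at day 1, 12.98 and 13.03 at day 3, 12.71 and 12.80 at day 5, 12.65 and 12.60 at day 7, 12.04 and 12.02 at day 10, and 11.09 and 11.10 at day 14. No 2 days with neighbouring means overlapped, so the order day 3, 5, 7, 1, 10, 14 and 0, from high to low, held in both pools. C3ar1 rose by 3.76 ± 0.09 at day 1 (13.5-fold, adjusted p = 5.035e-10) and by 4.28 at day 3 (19.4-fold, adjusted p = 3.112e-10). It was the largest change of the set, and at day 14 it was still 5.15-fold above day 0.

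C5ar1, the C5a receptor, came down sooner. It read 7.63 and 7.91 at day 0, 10.90 and 11.28 at day 1, 11.23 and 11.31 at day 3, 10.83 and 10.91 at day 5, 10.39 and 10.42 at day 7, 9.60 and 9.63 at day 10, and 9.06 and 9.10 at day 14. Day 1 overlapped both day 3 and day 5, and from day 7 on each day lay below the one before in both pools. C5ar1 rose by 3.32 ± 0.12 at day 1 (9.99-fold) and by 3.50 at day 3 (11.3-fold, adjusted p = 3.344e-09), and stood 2.48-fold above day 0 at day 14. That is 37.4% of its largest log2 change, beside 55.3% for C3ar1.

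Both receptors fell from day 7 to day 10, C3ar1 by 0.60 (adjusted p = 0.00226) and C5ar1 by 0.79 (adjusted p = 0.00197). Days 10 and 14 together stood below days 5 and 7, where C3ar1 fell by 1.13 ± 0.07 (adjusted p = 2.389e-06) and C5ar1 fell by 1.29 ± 0.08 (adjusted p = 3.052e-06). Against days 1 and 3 the receptors fell by 1.18 and 1.83, and the C1q chains rose by 0.48 to 0.68, with pools that overlapped because day 1 was low and day 3 high; 5 of the 8 genes rose and 2 fell there, against 43.7% of all genes called (24.1% rose and 19.6% fell). From day 3 to day 14 the chains fell as the receptors did, C1qa by 0.75, C1qb by 0.64 and C1qc by 0.97 (adjusted p = 0.000161, 0.000422 and 5.672e-05). The receptors had their highest means at day 3, and the C1q chains at day 5 or 7. The log2 ratio of C3ar1 to C5ar1 within an array, from its day 0 mean, moved from 0.67 and 0.21 at day 1 to 1.48 and 1.43 at day 10, and was 1.07 and 1.04 at day 14.

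Markers of cells known to carry these receptors or to make C1q also changed. Of 20 macrophage and monocyte markers 18 were measured, and 14 rose at day 1, 17 at day 3 and 15 at day 14 (against 20.3%, 24.2% and 21.4% of all genes). Their summed intensity was 8699.7 and 9600.8 in the day 0 pools, 36001.7 and 36007.4 at day 1, and 54344.1 and 55309.3 at day 3. It was 47841.1 and 51703.5 at day 5, 47468.3 and 49507.4 at day 7, 35019.5 and 36142.0 at day 10, and 25284.8 and 26643.8 at day 14. All 10 neutrophil markers rose at day 1, 6 rose at day 3, and 0 rose at day 14 (against the same shares of all genes). Their summed intensities were 17830.1 in the right and 35065.8 in the left pool of day 1. From day 1 to day 3, 12 of the 18 macrophage and monocyte markers rose and 2 fell, and 9 of the 10 neutrophil markers fell. Of all genes, 21.5% rose and 13.2% fell in that step. The defining markers Csf1r, Cd68 and Cxcr2 were on the array, but without detection calls their presence in a given pool cannot be told. The part these cells had in the changes of the receptors and C1q was not tested.

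**Figure D3:**
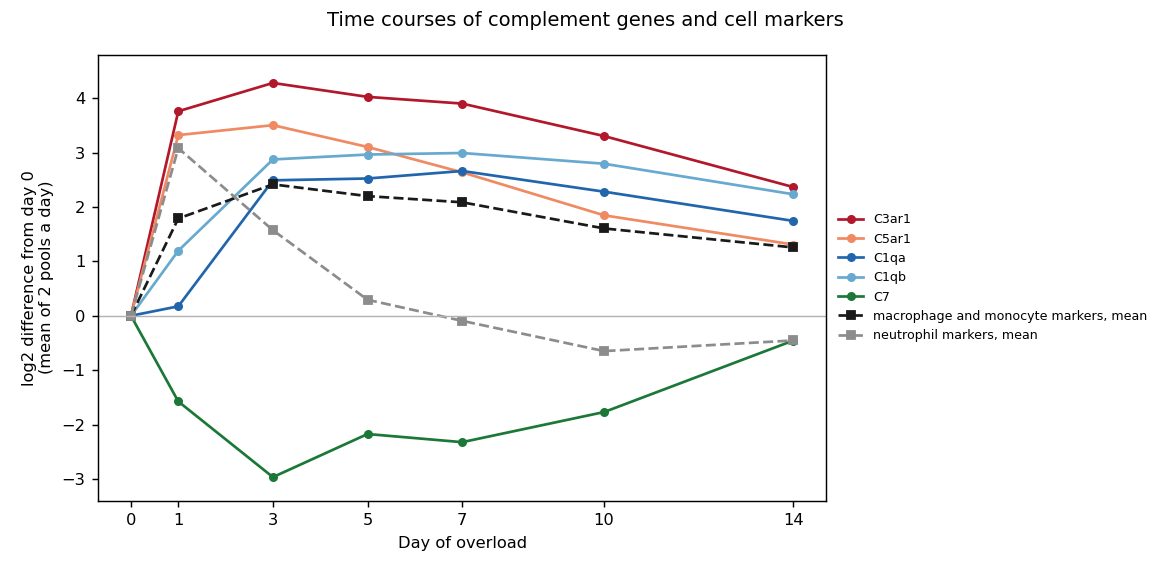
Mean log2 difference from day 0 (2 pools a day) for C3ar1, C5ar1, C1qa, C1qb and C7 (solid lines) and for the means of 18 macrophage and monocyte markers and 10 neutrophil markers (dashed lines), by day of overload. C3ar1 and C5ar1 are at 3.76 and 3.32 by day 1, C1qa is at 0.17 then and at 2.49 by day 3, and C7 is lowest at day 3.

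C3ar1 was most like the protease gene Ctss (r = 0.997), the macrophage marker Cd68 (r = 0.9967) and Fyb, an adaptor of blood cells (r = 0.9955). C5ar1 was most like Hcls1, a cortactin relative of blood cells (r = 0.9965), Nfam1 (r = 0.992) and Cyrib (r = 0.9919). Ctss and Cd68 are themselves in the macrophage and monocyte list. Of 7 other receptors measured, 5 rose at each day up to day 10 (71.4%, against 20.3% to 28.5% of all genes) and 4 at day 14 (57.1%, against 21.4%). Cr2, complement receptor 2 of B cells, named after its values were seen, fell at days 5, 7 and 10 by 0.29 to 0.31. Its signal was low, between 5.78 and 6.19 log2 units on all arrays, and its calls were not repeated under the alternatives. Itgam and Itgb2, the chains of complement receptor 3, rose by 3.86 ± 0.19 and 2.94 ± 0.10 at day 1 (adjusted p = 4.255e-08 and 3.637e-09). Itgax, which pairs with Itgb2 in complement receptor 4, rose by 1.89 ± 0.14 at day 7 (adjusted p = 5.953e-07). C5ar2, the second C5a receptor and the neighbour of C5ar1 on chromosome 7, was singled out after its values were seen; it rose by 1.65 ± 0.19 at day 1 (adjusted p = 2.028e-05) and did not pass the test at day 14 (0.37, adjusted p = 0.135).

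C4b, the gene of complement C4, could not be shown to change, and its pools disagreed at 2 days. C4b read 8.68 in the right and 9.89 in the left pool at day 0, and 9.71 and 8.73 at day 1. At later days the pools lay closer, at 9.35 and 9.10 (day 3), 9.55 and 9.56 (day 5), 9.47 and 9.42 (day 7), 9.56 and 9.84 (day 10), and 10.05 and 9.98 (day 14). The left pool of day 0 was therefore above all pools of days 3 to 10, and the right pool of day 0 was below every other array. The difference from day 0 ran from -0.07 at day 1 to 0.73 ± 0.35 at day 14 (95% interval -0.04 to 1.5, adjusted p = 0.114). C4a, a near-identical gene whose probes could be shared, also passed the test at none of the days, with differences from -0.15 to 0.21.

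The pools in which C4b stood high at days 0 and 1 were those with the most hepatocyte signal. Right minus left, the mean log2 of the 17 hepatocyte markers differed by -2.39 at day 0 and by 2.09 at day 1, and C4b by -1.21 and 0.98. Over the 7 days these right-minus-left differences had a Pearson r of 0.79 (exact permutation p = 0.0179) and a Spearman rho of 0.86 (exact permutation p = 0.0238). This was 1 of 8 such relations, 1 for each gene, and neither value passed after Benjamini-Hochberg adjustment (0.143 and 0.190). Without days 1 and 14, the days farthest from the median of the marker difference, r was 0.63 over 5 days, which was not tested. Without days 0 and 1, which had prompted the comparison, r was 0.34 over 5 days, a check added after the data were seen. From day 3 to day 14 the C4b pools differed by no more than 0.28.

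When those 2 pools were left out, C4b stood 0.55 above day 0 at day 3, 0.88 and 0.77 at days 5 and 7, and 1.02 and 1.34 at days 10 and 14. Day 0 is then the right pool alone, the lowest C4b value of all 14 arrays, so values above 0 follow from the choice of pools. The spread comes from the other days, day and side are mixed, and these values support no rise. With the left pool of day 0 alone left out, C4b was likewise at 0.88 at day 5 and 1.34 at day 14, and without the right pool of day 0 it stood at -0.33 and 0.12. With the hepatocyte marker mean as a covariate the values were 0.88 at day 5 (adjusted p = 0.0171) and 1.33 at day 14 (adjusted p = 0.00268), and 0.09 at day 3. The late values of C4b against day 0 thus depended on how the day 0 pools were treated. Comparisons that do not use day 0 did not pass in the main fit either. Day 14 stood 0.79 ± 0.35 above day 3 (adjusted p = 0.1105), with pools that did not overlap. Days 10 and 14 stood 0.64 ± 0.25 above days 1 and 3 (adjusted p = 0.0575), with pools that overlapped. Both were repeated under the 28 alternatives given below, some with a pool left out. Day 14 against day 3 then ran from 0.66 to 1.24 and was called in 5. Days 10 and 14 against days 1 and 3 ran from 0.39 to 1.13 and were called in 8. C4b was most like Tlcd2 (r = 0.9135), Shpk (r = 0.8777) and C2 (r = 0.8707), the gene of the protease that joins C4 in the classical C3 convertase.

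**Figure D4:**
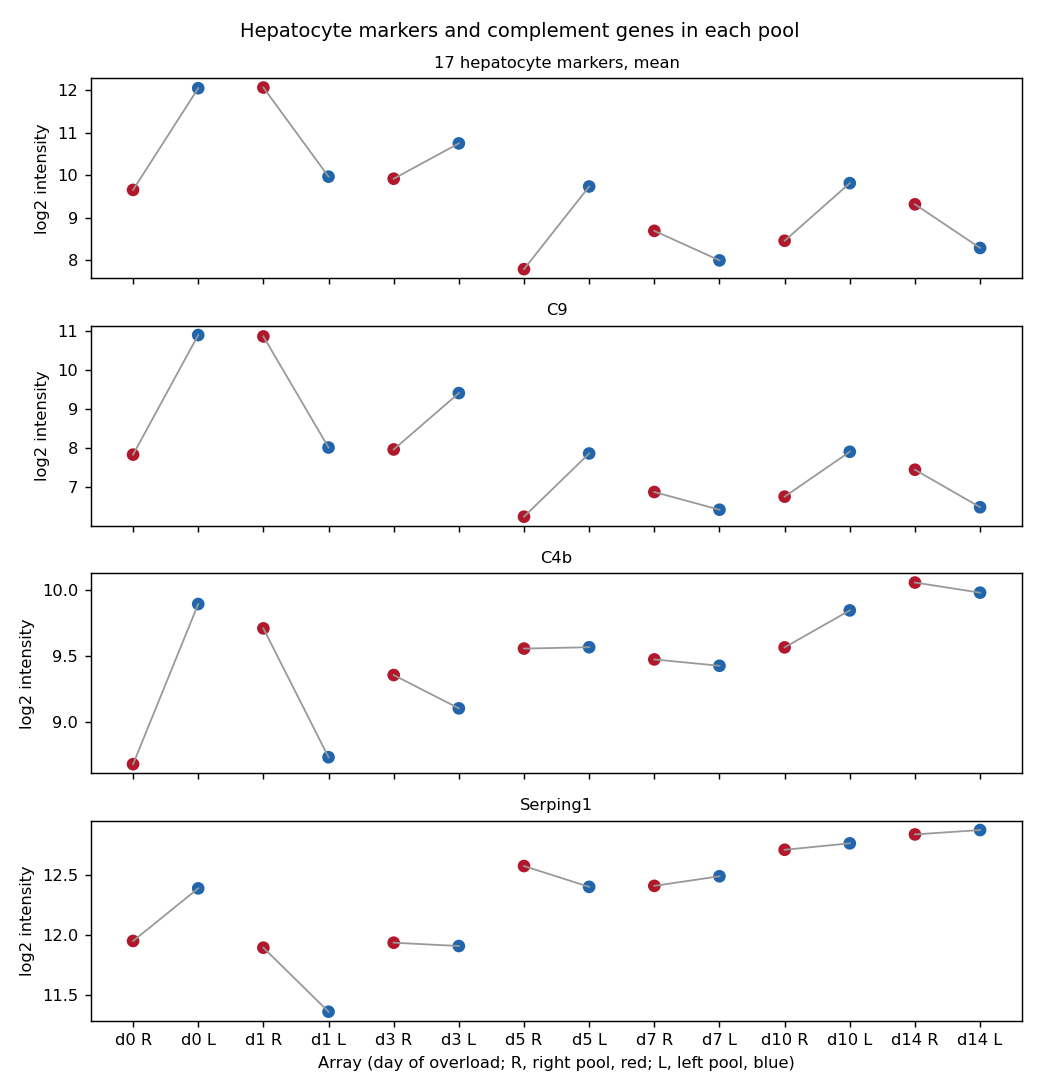
Log2 intensity on each array of 17 hepatocyte markers (mean), C9, C4b and Serping1, with right pools in red, left pools in blue and a line joining the 2 pools of a day. The day 0 left pool and the day 1 right pool are the 2 highest in the panels of the hepatocyte markers and C9, and C4b has its widest gaps at the same days.

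In the same part of the cascade Cfp, the gene of properdin, which stabilises the alternative pathway convertase, rose at every day. Its pools read 9.07 and 8.99 at day 0, 10.84 and 10.91 at day 1, 11.78 and 11.82 at day 3, and 9.74 and 9.97 at day 14, with no overlap with day 0. The rise was 2.77 ± 0.12 at day 3 (6.84-fold, adjusted p = 1.286e-08). Cfp was the only one of the 4 measured genes of this stage outside the set (C2, C4a, Cfb, Cfp) to pass the test at any day. Factor B (Cfb) read 8.41 and 9.89 at day 0 and 10.37 and 9.55 at day 1, the same crossing of pools as C4b, and did not pass at day 1 (0.81, adjusted p = 0.0892). Cfd was not analysed here.

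Serping1, the gene of C1 inhibitor, dipped and then rose above its starting level. It read 11.95 and 12.39 in the right and left pools at day 0, 11.89 and 11.36 at day 1, 11.93 and 11.91 at day 3, 12.58 and 12.40 at day 5, 12.41 and 12.49 at day 7, 12.71 and 12.77 at day 10, and 12.84 and 12.88 at day 14. The pools of days 5 to 14 all stood above both day 0 pools, the lowest of them at 12.40 against 12.39, and those of days 1 and 3 stood below both. Serping1 fell by 0.54 ± 0.17 at day 1 (adjusted p = 0.0163) and rose by 0.57 at day 10 (adjusted p = 0.0141) and 0.69 at day 14 (1.61-fold, adjusted p = 0.00613). It was -0.25 at day 3, 0.32 at day 5 and 0.28 at day 7, none of which passed in the main fit. Among the 28 alternatives, some with a pool left out, day 5 was called in 6 and day 7 in 4.

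The calls of the fall and of both rises ended when single pools were left out, which leaves that day with only 1 pool. The sign of each stayed the same under all 28 alternatives. The day 1 call ended without the left pool of day 0 (-0.32, adjusted p = 0.150) or of day 1 (-0.28, adjusted p = 0.153), and the calls of days 10 and 14 ended without the right pool of day 0 (0.35 and 0.47, adjusted p = 0.125 and 0.0572), that of day 10 also without its left pool (0.54, adjusted p = 0.0646). The change between late and early overload did not use day 0: days 10 and 14 stood 1.03 ± 0.12 above days 1 and 3 (adjusted p = 2.394e-05), and all 4 late pools lay above all 4 early ones. Serping1 also differed between its pools where the hepatocyte markers did, by -0.44 (right minus left) at day 0 and 0.54 at day 1. Over the 7 days the relation to the marker difference had r = 0.62 (exact permutation p = 0.146, adjusted 0.298).

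Serping1 was most like C1s1, the gene of a protease that C1 inhibitor blocks (r = 0.964 over 14 arrays), then Agmo (r = 0.9591) and Gamt (r = 0.9545). Markers of fibroblasts and fibro-adipogenic progenitors, cells of the muscle's connective tissue, were lower at day 1 and higher at day 14 in sum. Of 13 measured of 14, 2 rose and 8 fell at day 1 (against 20.3% and 34.7% of all genes), and 11 rose and 1 fell at day 14 (against 21.4% and 20.7%). Their summed intensity was between 30654.9 and 32284.8 at day 0, 23777.0 and 24973.7 at day 1, and 68960.3 and 71669.8 at day 14. Their part in the change of Serping1 was not tested.

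The other soluble regulators followed another course. Of 6 measured besides Serping1, 4 fell at day 7, when 37.8% of all genes fell. Among them, Vtn (vitronectin, which blocks insertion of the attack complex) fell by 2.02 ± 0.54 (adjusted p = 0.00701). C4bp (a cofactor in C4b breakdown) fell by 1.98 ± 0.70 and Cfi (the protease that inactivates C3b and C4b) by 1.97 ± 0.76 (adjusted p = 0.0285 and 0.0389). All 3 are liver products whose pools differed as the hepatocyte markers did. Without the left pool of day 0 none of them passed, with Vtn at -1.30 (adjusted p = 0.0726), C4bp at -0.97 (adjusted p = 0.262) and Cfi at -0.90 (adjusted p = 0.333). C4bp and Cfi also lost the call without either pool of day 7 (C4bp -2.04 and -1.92, Cfi -2.07 and -1.87), and Cfi also without either pool of day 14, where its value stayed at -1.97. Clu (clusterin), singled out after its values were seen, rose by 1.13 ± 0.14 at day 1 and fell by 1.22 ± 0.14 at day 10 (adjusted p = 3.362e-05 and 2.047e-05).

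C7 was the only one of the 8 genes to fall at every later day. C7 encodes the component that anchors the growing attack complex in the membrane. The bases before its start are shown because it moved against the rest of the set (chr15:5063774-5064023, minus strand, GRCm38.p6, 5′ to 3′). Capitals mark a STAT motif match, TTCCCAGAA, and a C/EBP motif match, TTGCAGCAA.
C7: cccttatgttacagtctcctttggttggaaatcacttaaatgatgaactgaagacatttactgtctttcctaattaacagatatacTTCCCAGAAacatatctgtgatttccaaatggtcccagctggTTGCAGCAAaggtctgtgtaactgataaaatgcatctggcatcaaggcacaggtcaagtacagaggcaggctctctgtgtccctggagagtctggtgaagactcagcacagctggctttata
The matches began at -164 and -122. The STAT motif was in 8.3% and the C/EBP motif in 2.08% of the 32851 windows, and in none of the other 5 windows of the set.

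In the right and left pools C7 read 10.42 and 10.51 at day 0, 8.93 and 8.85 at day 1, 7.29 and 7.71 at day 3, 8.50 and 8.08 at day 5, 7.98 and 8.31 at day 7, 8.64 and 8.75 at day 10, and 9.89 and 10.13 at day 14. Both day 0 pools stood above those of every other day, and both day 3 pools were below all others. C7 fell by 1.58 ± 0.17 at day 1 on the log2 scale (adjusted p = 1.344e-05) and by 2.97 at day 3 (adjusted p = 8.651e-08), where its level was 0.128 of that at day 0. From day 10 to day 14 it rose by 1.31 (adjusted p = 0.00439), and day 14 stood 2.51 above day 3 (adjusted p = 1.284e-06). The remaining difference at day 14, -0.45, was 15.3% of the largest. Its call (adjusted p = 0.0490) was a narrow one and ended without any single pool of days 0, 1, 10 or 14, with values from -0.57 to -0.34 and adjusted p from 0.0527 to 0.222.

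Unlike the other attack complex genes, C7 was alike in both pools at days 0 and 1, where right minus left was -0.09 and 0.08. C9, which forms the pore, read 7.84 and 10.90 at day 0 and 10.87 and 8.02 at day 1. It fell by 2.72 ± 1.07 at day 7 (adjusted p = 0.0423), as did Hc (complement C5) by 2.29 ± 0.85 and C8b by 2.06 ± 0.69 (adjusted p = 0.0334 and 0.0216). Of the 6 measured genes of this stage besides C7, 5 fell at day 7, 2 at day 5 and 0 at the other days. Of all genes, 37.8% fell at day 7, 38.1% at day 5 and 20.7% to 34.7% at the other days. None of the 3 named falls was called without the left pool of day 0 (C9 -1.18, Hc -1.01, C8b -0.95) or without either pool of day 7, and that of C9 ended without either pool of day 14 as well (adjusted p = 0.0516). With the hepatocyte marker mean as a covariate C9 stood at 0.14, Hc at -0.06 and C8b at -0.32. Under that covariate C7 at day 3 was -2.98 (adjusted p = 5.627e-08).

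Over the wider pathway, 16 of the 44 other measured complement genes had the left pool higher at day 0 and the right pool higher at day 1 by more than 0.5 log2 units each (36.4%, against 390 of all 19938 genes, or 1.96%), and of the 8 genes of the set only C4b did. The 16 were Masp1, Masp2, Mbl1, Cfb, Hc, C6, C8a, C8b, C8g, C9, Cfi, C4bp, Vtn, Cpn1, Cpn2 and Vsig4, most of them known as liver products. C7 was most like Zyg11b (r = 0.9885), the clock repressor Nr1d2 (r = 0.9817) and the insulin-degrading enzyme gene Ide (r = 0.9811).

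Some regulators on the cell surface also fell. Of 8 membrane regulators measured, 5 fell at each of days 3, 5 and 7 (62.5%), against 23.4%, 38.1% and 37.8% of all genes. At days 1, 10 and 14, 3, 2 and 1 of them fell (37.5%, 25% and 12.5%), which was near or below the 34.7%, 27.5% and 20.7% of all genes, and 0 rose at any of the 6 days. Cd59b and Cd59a, genes of the protein that stops C9 from forming a pore, fell by 1.76 ± 0.10 and 1.74 ± 0.17 at day 3 (adjusted p = 8.413e-08 and 4.833e-06), and Cd55, which speeds the decay of convertases, by 1.17 ± 0.16 (adjusted p = 7.639e-05). Cd59b read 8.97 and 9.02 at day 0, 7.10 and 7.37 at day 3 and 8.02 and 8.20 at day 14, with all later pools below day 0. Cd59a and Cd59b are close copies whose probes could be shared. In the F test for any difference from day 0, Cd59a, Cd59b, Cd55 and Cd46 passed. Cr1l (adjusted p = 0.209), Susd4 (0.708), Csmd1 (0.129) and Cd55b (0.05065) did not pass it. The signal of Cd55b was low, between 5.82 and 6.46 log2 units on all arrays. All 12 muscle fibre markers also fell at day 3 (against 23.4% of all genes), by a median of -0.58, and 3 were still down at day 14 (against 20.7%). Their part in the falls of C7 and the membrane regulators was not tested.

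**Figure D5:**
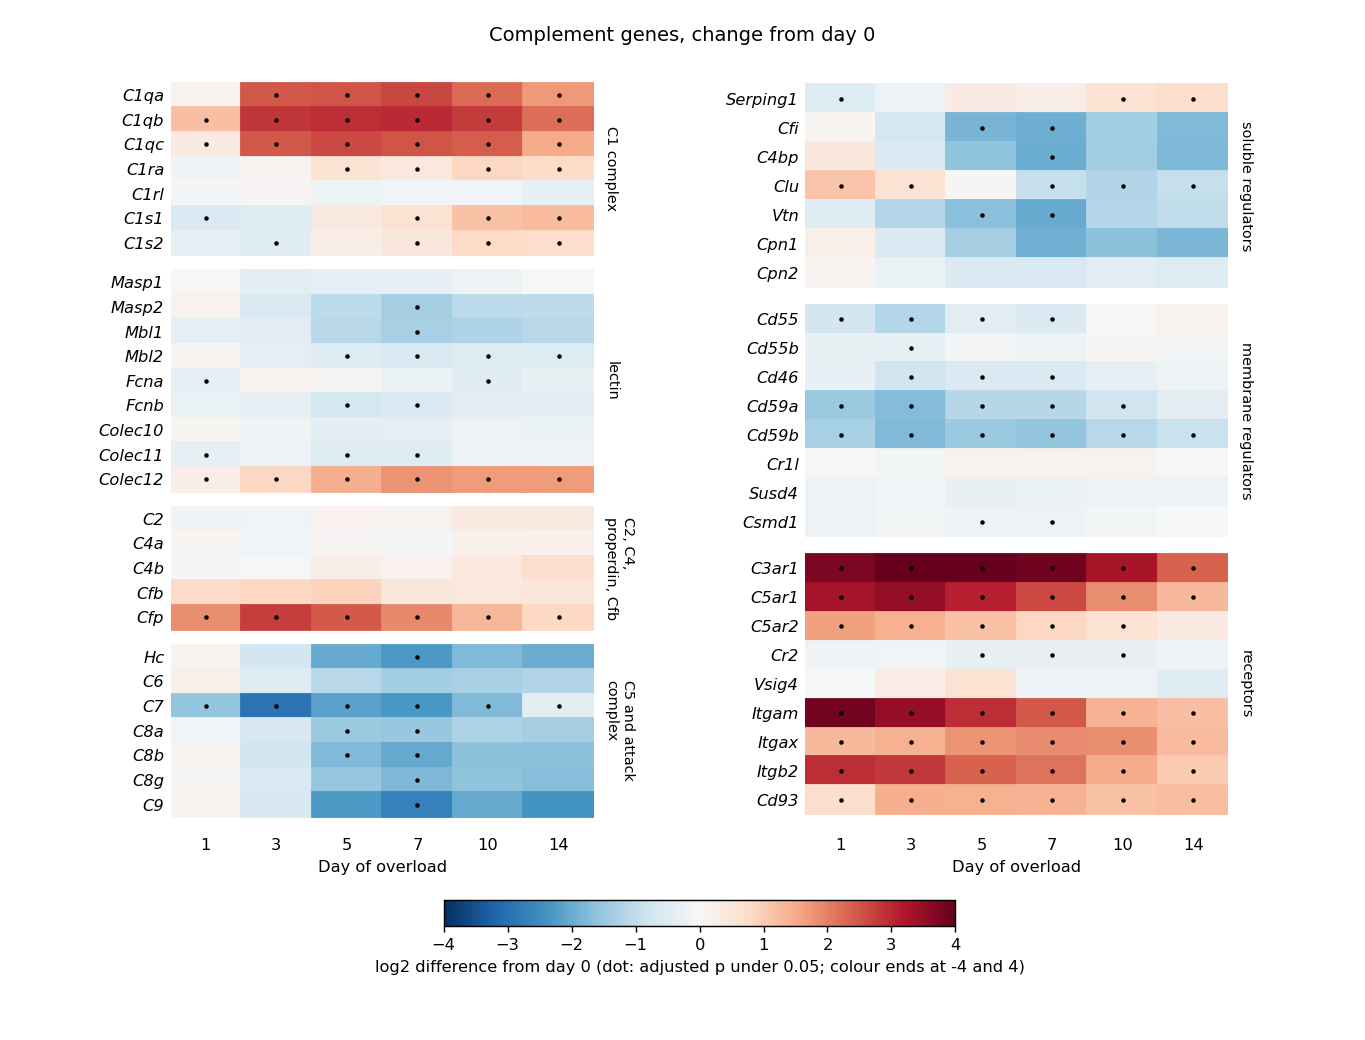
Log2 difference from day 0 of the 8 measured genes of the set and 44 other complement genes at each day, grouped by role, with red for higher, blue for lower and a dot where the adjusted p is under 0.05. The C1q chains, Cfp and most receptors are red with dots, while C7, Cd59a and Cd59b are blue with dots and the other attack complex genes carry dots mainly at day 7.

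Of the 50 further complement genes listed, 44 were measured. Rises were about as frequent as, or rarer than, among all genes: 8 of the 44 rose at each of days 1, 3 and 5 (18.2%, against 20.3%, 24.2% and 27.0%), 10 at each of days 7 and 10 (22.7%, against 28.5% and 23.6%) and 9 at day 14 (20.5%, against 21.4%). Falls numbered 6 at each of days 1, 3 and 10 (13.6%, against 34.7%, 23.4% and 27.5%), 13 at day 5 (29.5%, against 38.1%) and 3 at day 14 (6.82%, against 20.7%). The share of falls was above that of all genes at day 7 alone, with 20 falls (45.5%, against 37.8%). That count became 7 with the hepatocyte covariate. The share of all genes that fell under the covariate was not counted, so the 7 cannot be set against the 37.8%. Their median difference was 0.02 at day 1 and between -0.37 and -0.24 at the later days, beside -0.16 to -0.07 over all genes at those days. In the lectin pathway, which starts from sugar-binding proteins, Colec12, a scavenger receptor with a lectin domain, rose by 1.78 ± 0.10 at day 7 (adjusted p = 5.667e-08). Masp2 and Mbl1, a protease and a lectin from liver, fell by 1.36 ± 0.45 and 1.32 ± 0.51 at day 7 (adjusted p = 0.0217 and 0.0380), and stood at -0.76 and -0.35 without the left pool of day 0 (adjusted p = 0.196 and 0.423); both calls also ended without either pool of day 7 (-1.48 and -1.24 for Masp2, -1.20 and -1.45 for Mbl1).

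Few of the genes changed between neighbouring days from day 3 to day 7, and more did from day 7 on. From day 3 to day 5 only C7 rose among the 8 genes, by 0.79 (adjusted p = 0.0140), against 11.2% of all genes called (6.41% rose and 4.74% fell), and this ended without the right pool of day 3 (0.58, adjusted p = 0.129) or of day 5 (0.59, adjusted p = 0.0805). From day 5 to day 7 limma called 0 of the 8 and 1.15% of all genes (0.667% rose and 0.487% fell), and 1 of the 8 (C5ar1) had an unadjusted p under 0.05. From day 7 to day 10, 3 fell (C1qa, C3ar1, C5ar1) and 1 rose (C7), against 16.5% of all genes (9.52% fell and 6.95% rose); the calls of C1qa (-0.38) and C7 (0.55) ended when 1 pool was left out, C1qa's without any pool of days 7 or 10 (-0.42 to -0.34) and C7's without the right pool of day 7 (0.39), either pool of day 10 (0.61 and 0.50) or any pool of days 0, 1 or 14 (0.55). From day 10 to day 14, 5 fell (the C1q chains and both receptors) and 1 rose (C7), against 4.67% of all genes (2.56% fell and 2.11% rose). In that step the calls of C1qa (-0.54), C1qb (-0.56) and C5ar1 (-0.54) ended without any 1 of the 4 pools compared, and C1qc (-0.88), C3ar1 (-0.94) and C7 (1.31) remained called. From day 3 to day 14, 5 fell and 2 rose, against 33.9% of all genes (16.3% fell and 17.6% rose), with C5ar1 falling by 2.19, C3ar1 by 1.91 and Serping1 rising by 0.94 (adjusted p = 0.00101).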

How the data were processed

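The deposited values are intensities on a linear scale, 1 for each of 35556 probe sets, which the authors made with Partek per the submitters' processing notes. How they were summarised and normalized, and the genome build, are not given in the sources used here. Array medians lay between 242.8 and 254.9. The labels give the pools and days. The log2 of the intensity was taken without further normalization. Of the probe sets, 21789 had 1 symbol, 1621 had several and 12146 were not listed in the annotation used, and the brightest probe set stood for each of the 999 genes with several, which left 19938 genes. limma 3.58.1 under R 4.3.3 fitted 1 mean per day (7 residual and 3.88 prior degrees of freedom), and tests were two-sided. Precision is limited by the number of arrays: the median SE of a difference between days was 0.0988.

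The genes and all lists were chosen with earlier results of these data known. Beside the 8 genes, the rule named up to 3 other complement genes per role, those with the largest called changes from day 0. Comparisons with day 0 share its 2 arrays. Correlations are Pearson's over 14 arrays, and those of right-minus-left differences had exact permutation tests with scipy 1.17.1. On simulated data for day 3 against day 0 over 19938 genes, the fit recovered 68% of genes changed 1.5-fold and 100% of those changed 2-fold, 4-fold and 8-fold, 50 genes each, with 3 false calls. The simulated noise was independent between genes, with no deviation shared by the genes of a pool. Far fewer genes were changed there than the 47.7% called at day 3 in the data, so these rates may not hold for the real arrays. Alternatives were quantile normalization, equal array medians, an offset of 16, no dim genes, all probe sets, other variance priors, side as a block, only the days compared, a 2-fold or 0.01 threshold, a hepatocyte covariate, and leaving out pools. Sides of the same name did not deviate together in a steady way. Correlations over 21 pairs of days ran from -0.58 to 0.44, with a median of -0.06 and 9 of them over 0.1. Side was therefore not used as a pairing in the main fit. Figures were drawn with matplotlib 3.10.9.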

Additional observations from a re-analysis of the deposited data

Results flagged for a closer look

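C4b moved in opposite directions in the right and left pools when each was set against the day 0 pool of its own side, and this difference was not tested. At day 1 the right pool was 1.03 above and the left pool stood at -1.16. The values were 0.68 and -0.79 at day 3, 0.88 and -0.33 at day 5, 0.79 and -0.47 at day 7, and 0.88 and -0.048 at day 10, right before left. All of these rest on 1 right and 1 left pool of day 0, which read 8.68 and 9.89.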

How the results depend on the processing

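Each comparison was repeated under 28 alternatives, and direction and call were kept in 337 (Serping1) to 386 (C3ar1) of the 392 repeats a gene. Equal array medians shifted the median of all genes by up to 0.129. The labels give only sides as shared replicate names. With side as a replicate block, genes of the set that fell at day 14 went from 1 to 0, those that fell from day 3 to 5 from 0 to 1, those that rose from day 7 to 10 from 1 to 0, and those that rose in days 10 and 14 against 5 and 7 from 2 to 1. Among the other named genes the block ended the call of C9 at day 7 (-2.72, adjusted p = 0.0507) and no other.

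Counts among the 8 genes moved as follows. Falls at day 1 (2) became 1 with only the days compared, with a 2-fold threshold and with an adjusted p under 0.01, and 1 to 2 when 1 pool was left out. Falls at day 14 (1) became 0 with the 2-fold or 0.01 threshold, without both hepatocyte-rich pools or with the covariate, and 0 to 1 without 1 pool. Rises from day 3 to 5 (1) became 2 under quantile normalization, the offset, no dim genes, all probe sets, either prior, only the days compared, without both pools and with the covariate, 0 under the 2-fold or 0.01 threshold, and 0 to 2 without 1 pool. Falls in that step (0) became 1 with the offset, no dim genes, either prior or only the days compared, 2 without both pools, and 0 to 2 without 1 pool. Falls from day 5 to 7 (0) became 1 without both pools and 0 to 1 without 1 pool. Rises from day 7 to 10 (1) became 0 under quantile normalization and both thresholds, and 0 to 1 without 1 pool. Falls from day 10 to 14 (5) became 2 at 0.01 and 2 to 5 without 1 pool. Rises in days 10 and 14 against 5 and 7 (2) became 1 under quantile normalization and at 0.01, and 1 to 2 without 1 pool. The 2-fold threshold also took falls from day 7 to 10 from 3 to 0, falls from day 10 to 14 to 0, day 14 against 3 to 1 rise and 2 falls, days 10 and 14 against 5 and 7 to 1 rise and 2 falls, and against days 1 and 3 to 2 rises.

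Among the 44 other complement genes, falls at day 1 (6) became 3 with only the days compared or at 0.01, 2 at 2-fold, and 5 to 11 without 1 pool. Falls at day 3 (6) became 11 under equal medians, 3 at 2-fold, and 4 to 10 without 1 pool. At day 5, rises (8) became 13 without both pools, and falls (13) became 20 under equal medians, 6 at 2-fold, at 0.01 or with the covariate, 8 without both pools, and 6 to 22 without 1 pool. At day 7, rises (10) became 6 at 2-fold, and falls (20) became 11 with the robust prior, 12 at 2-fold, 9 at 0.01, 7 with the covariate, and 8 to 25 without 1 pool. Falls at day 10 (6) became 14 under equal medians, 2 at 2-fold, and 3 to 18 without 1 pool. Falls at day 14 (3) became 7 under quantile normalization, 13 under equal medians, 8 without dim genes, 5 with the trended prior or only the days compared, 0 at 2-fold, and 2 to 17 without 1 pool. Days 10 and 14 against 5 and 7 had 7 rises, which became 11 with only the days compared, 0 at 2-fold, 4 at 0.01 and 12 without both pools, and 7 falls, which became 2 at 2-fold.

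Signs turned mainly in differences that did not pass. Without 1 pool, C4b against day 0 ran from -0.67 to 0.54 at day 1, from -0.66 to 0.55 at day 3, from -0.33 to 0.88 at day 5, from -0.44 to 0.77 at day 7 and from -0.19 to 1.02 at day 10, with the day 0 pools giving the ends. Without both hepatocyte-rich pools C4b was 0.053 at day 1 and 0.55 at day 3 (adjusted p = 0.00643), with the covariate 0.094 at day 3, and under quantile normalization -0.0405 at day 7. Between days 1 and 3 C4b was -0.065 under quantile normalization, -0.12 under equal medians and -0.48 to 0.50 without 1 pool, and C5ar1 was -0.0047 without both pools and -0.0047 to 0.37 without 1. Between days 3 and 5 C1qa ran from -0.081 to 0.15 without 1 pool. Between days 5 and 7, without 1 pool, C1qb ran from -0.044 to 0.10, C1qc from -0.25 to 0.019, C7 from -0.36 to 0.057 and Serping1 from -0.13 to 0.049, and with the covariate Serping1 was 0.0031 and C4b 0.011. Between days 7 and 10 C1qc ran from -0.25 to 0.013. At day 7 with the covariate C9 was 0.14 and Cfi 0.0050. The cause was not tested. With 2 pools a day, small differences of variable genes such as C4b cannot be resolved.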
